A study of Mus musculus with 10 samples.

Results

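The MHC class II presentation genes were followed across 10 RNA-seq libraries of CNS-associated macrophages (CAMs), the macrophages of the brain's borders and vessels. The set held 10 genes, picked by symbol from the 53546 genes of the counts table: H2-Aa, H2-Ab1, H2-Eb1, Cd74, H2-DMa, H2-DMb1, H2-DMb2, H2-Oa, H2-Ob and Ciita. All 10 passed the filter on low counts that left 14023 genes for testing. CAMs were sorted by flow cytometry from brain tissue, 1 library per mouse, from 4 homozygous mice (Mrc1-CreERT2/Mrc1-CreERT2), 3 heterozygous mice (Mrc1-CreERT2/wt) and 3 wild-type mice without the allele. In the Mrc1-CreERT2 line a tamoxifen-inducible Cre recombinase is expressed from Mrc1, which encodes the mannose receptor (CD206). All mice were C57BL/6N, 6 to 8 weeks old, bred in a specific-pathogen-free facility, with no treatment listed and 1 batch label. By GENCODE vM21 on GRCm38, the 8 H2 genes lie on chromosome 17 between 34092340 and 34316674, Cd74 on chromosome 18 at 60803848 to 60812652, and Ciita on chromosome 16 at 10480059 to 10528418. Heterozygous replicates are numbered 1, 2 and 4, as their labels number them.

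MHC class II molecules present peptides from the endosomal pathway to CD4 T cells. An alpha and a beta chain pair in the endoplasmic reticulum with the invariant chain, encoded by Cd74, which blocks the groove until endosomal proteases trim it to a short peptide called CLIP. The H2-M heterodimer then exchanges CLIP for other peptides, and H2-O restrains H2-M. Transcription of most of these genes depends on CIITA, a co-activator without DNA binding of its own, which docks on the RFX, CREB and NF-Y factors at the conserved X and Y boxes of class II promoters. Class II is inducible in macrophages, and in the healthy brain it marks a subset of the border macrophages more than the microglia.

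Promoters are shown here because class II promoters are known for the boxes that CIITA's partners bind. RefSeq promoters on GRCm38.p6 were found for 7 of the 10 genes, 8 entries in all, and none for H2-Ab1, Cd74 or Ciita. They were searched on both strands over the 250 bases before the start. The search was for GCAAC, a core of the X box, followed after 15 to 35 bases by ATTGG, the core of the Y box, which binds NF-Y; both cores are in capitals.
H2-Aa, chr17:34287857-34287914, minus strand: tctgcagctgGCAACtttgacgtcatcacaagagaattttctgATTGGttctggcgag
H2-Eb1, chr17:34305766-34305822, plus strand: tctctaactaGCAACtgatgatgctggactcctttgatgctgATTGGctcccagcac
H2-Oa, chr17:34092293-34092350, plus strand: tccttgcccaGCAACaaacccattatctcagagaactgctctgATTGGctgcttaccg
H2-Ob, chr17:34238808-34238862, plus strand: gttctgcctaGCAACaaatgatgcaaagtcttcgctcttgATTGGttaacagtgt
These 4 genes held the pair, with gaps of 28, 27, 28 and 25 bases in the order shown. Across all 32851 promoters of the same length, 0.874% held the pair, 29.9% held GCAAC and 33.8% held ATTGG. One H2-DMa entry held GCAAC alone and the other ATTGG alone, and H2-DMb1 and H2-DMb2 held ATTGG alone. These are matches of letters only.

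Library totals ran between 27358042 and 36575446 counts in homozygous mice, 22986972 and 32326603 in heterozygous mice, and 28668839 and 32931690 in wild-type mice. A count of 0 allows up to 3 counts, or 0.0817 to 0.13 CPM (counts scaled to a library total of 1000000), depending on the library. Mrc1, the gene that carries CreERT2, averaged 489 ± 48.6 CPM in homozygous (SD, n = 4), 2153 ± 153 CPM in heterozygous and 3481 ± 365 CPM in wild-type libraries (SD, n = 3 each). The 12 border-macrophage markers summed to 20183 to 20526 CPM in homozygous, 17027 to 19805 CPM in heterozygous and 17678 to 19237 CPM in wild-type libraries, so the labelled cell type was present throughout. Other cell types that bear class II were looked for by their markers. Of the 12 B-cell markers the defining Pax5 averaged 0.0121 CPM over the libraries, while the summed level, mostly Ighm, was 272.3 to 439.9 CPM in homozygous, 368.1 to 492.4 CPM in heterozygous and 503.1 to 791.5 CPM in wild-type libraries. For dendritic cells the 10 markers summed to 226.1 to 354.1 CPM in homozygous, 344.9 to 361.3 CPM in heterozygous and 305.3 to 422.0 CPM in wild-type libraries. They were led by Siglech and Cd209a, and Siglech is also among the microglial markers used below. Fscn1 averaged 63.9 CPM and Zbtb46 37.9 CPM, against 0.117 CPM for Flt3 and 0.0654 CPM for Clec9a. The 9 monocyte markers summed to 5.722 to 20.52 CPM in homozygous, 49.05 to 68.03 CPM in heterozygous and 75.87 to 199.7 CPM in wild-type libraries, led by Ccr2, and Chil3 and F10 had no count in any library.

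The class II genes took 0.945%, 0.978%, 0.708% and 0.253% of all counts in the 4 homozygous libraries, 2.21%, 1.01% and 2.07% in the heterozygous libraries, and 3.36%, 2.58% and 1.67% in the wild-type libraries. Every homozygous library lay below every heterozygous and every wild-type library, and the heterozygous and wild-type ranges overlapped. The means were 0.721% ± 0.334 in homozygous (SD, n = 4), 1.76% ± 0.657 in heterozygous and 2.54% ± 0.847 in wild-type libraries (SD, n = 3 each). By a two-sided exact permutation test the homozygous share differed from wild type by -1.82 percentage points (p = 0.0286) and from heterozygous by -1.04 points (p = 0.0286), in both cases the smallest p that 35 splits allow. The heterozygous share differed from wild type by -0.774 points (exact p = 0.4, where 0.1 is the smallest possible). These p-values were not adjusted over the 3 comparisons. The genes were chosen with earlier results of these data known, so the p-values describe the set and are no independent support. Since Cd74, H2-Ab1, H2-Aa and H2-Eb1 supply most of these counts, the share describes mainly those 4 genes. In bulk RNA, fewer class II-bearing cells and less class II RNA per cell cannot be told apart.

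Per kilobase of principal transcript, Cd74 was the most abundant of the class II genes, at a mean of 4741 CPM per kilobase over the 10 libraries. H2-Ab1 followed at 2964, H2-Aa at 2572 and H2-Eb1 at 1155 CPM per kilobase, and each of these 4 stood above the next in every library. H2-DMb1 (205) and H2-DMa (196) formed a second tier whose order differed between libraries, with H2-DMb1 above H2-DMa in 7 of 10. The lowest tier held H2-DMb2 (8.24), Ciita (5.32), H2-Ob (4.29) and H2-Oa (3.17 CPM per kilobase), and Ciita stood above H2-Ob in 5 of 10 libraries. With length taken as the union of all exons, H2-Eb1 (992) stood above H2-Aa (764 CPM per kilobase) in 9 of 10 libraries, so the order of those 2 genes depends on the transcript model. The beta chain of H2-M is counted in near-copies: the principal transcripts of H2-DMb1 and H2-DMb2 were 94.4% identical over 1255 aligned bases and shared 369 stretches of 50 bases, 27.2% and 26.8% of those each holds. How the authors' counting divided reads between them is not stated in the labels or file headers, and the split between these 2 genes is uncertain.

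**Figure D1:**
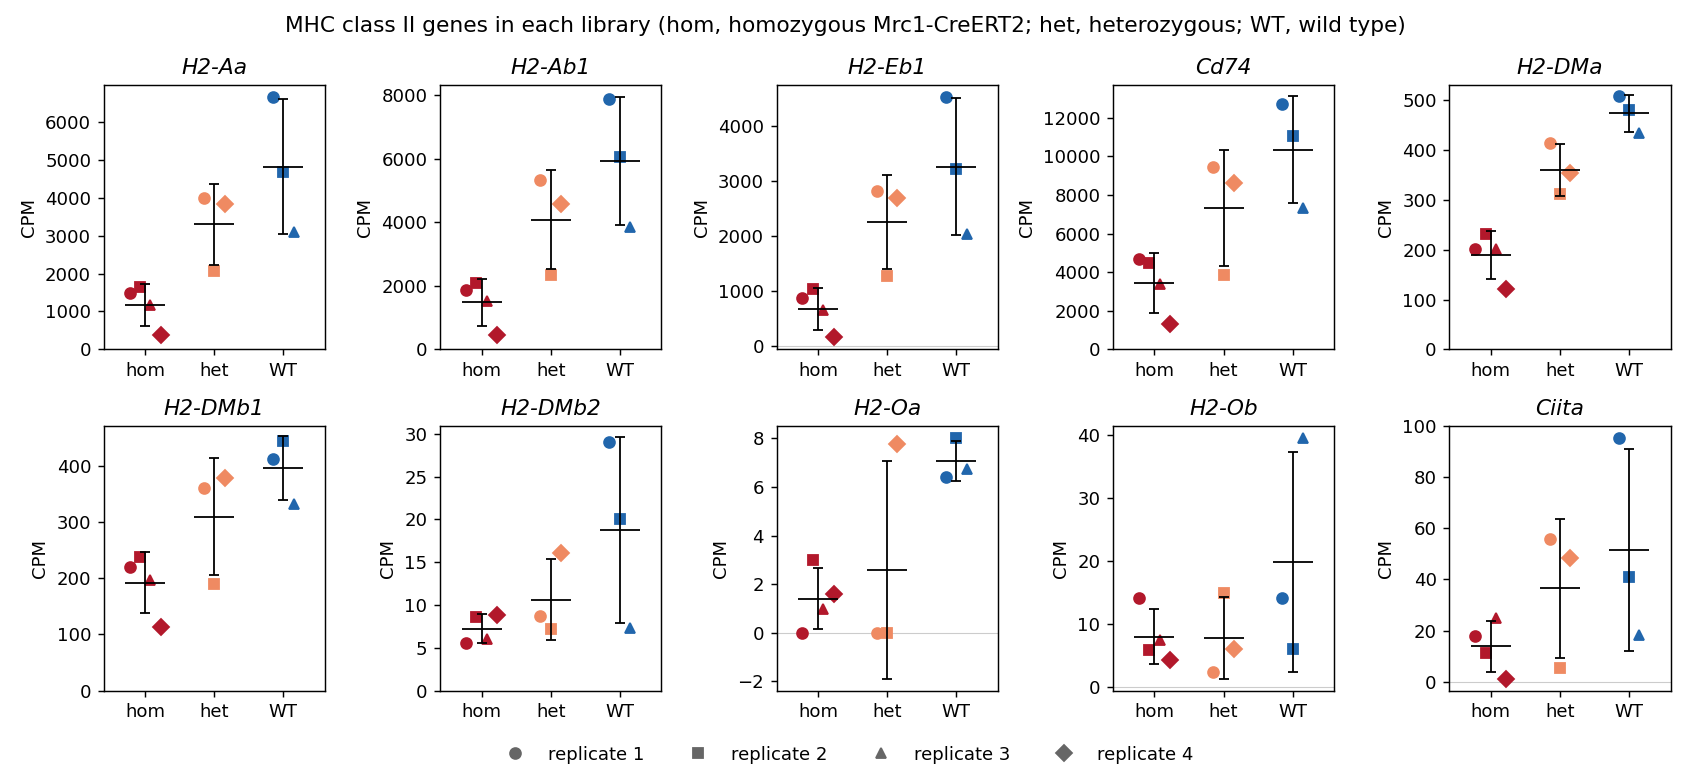
CPM of each of the 10 class II genes in each library, by genotype (homozygous, heterozygous, wild type); points are libraries, with a shape for each replicate number, and bars are the mean ± SD. Axes differ between genes: H2-Aa spans 382.5 to 6656 CPM and H2-Oa 0 to 8.012 CPM, and homozygous replicate 4 is the lowest library for H2-Aa, H2-Ab1, H2-Eb1, Cd74, H2-DMa, H2-DMb1 and Ciita.

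The classical chains were lower in homozygous macrophages than in the other genotypes, and no library of the homozygous group reached the others' range. H2-Aa encodes the alpha chain of I-A, the class II molecule that C57BL/6 mice display. It stood at 1483, 1656, 1164 and 382.5 CPM in homozygous libraries, 3997, 2055 and 3833 CPM in heterozygous libraries, and 6656, 4687 and 3101 CPM in wild-type libraries. The highest homozygous library was thus below the lowest heterozygous one, and the heterozygous and wild-type libraries overlapped. The fitted log2 fold change against wild type was -2.04 (SE 0.447; edgeR quasi-likelihood test, Benjamini-Hochberg adjusted p = 0.276 over all genes).

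H2-Ab1, the I-A beta chain and partner of H2-Aa, had 1881, 2097, 1521 and 444.1 CPM in homozygous libraries, 5325, 2334 and 4558 CPM in heterozygous libraries, and 7880, 6038 and 3843 CPM in wild-type libraries. Its libraries ranked in the same order as those of H2-Aa (Spearman's rho 1 over the 10 libraries), with homozygous replicate 4 lowest and wild-type replicate 1 highest. The fitted change of H2-Ab1 against wild type was -1.99 (SE 0.470; edgeR adjusted p = 0.321).

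H2-Eb1 encodes the beta chain of I-E. It was measured at 872, 1040, 652.5 and 163 CPM in homozygous libraries, 2811, 1277 and 2692 CPM in heterozygous libraries, and 4520, 3220 and 2030 CPM in wild-type libraries. H2-Eb1 spanned the widest range of the chains, with 27.7-fold between its lowest and highest library against 17.4-fold for H2-Aa and 17.75-fold for H2-Ab1. Its fitted change of -2.26 against wild type (SE 0.531; edgeR adjusted p = 0.321) came with the largest SE of the 3 chains. Its alpha-chain partner H2-Ea, not transcribed in mice of the C57BL/6 haplotype, had no count in any library.

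Cd74, the invariant chain, had 4690, 4458, 3385 and 1296 CPM in homozygous libraries, 9445, 3864 and 8634 CPM in heterozygous libraries, and 12691, 11062 and 7317 CPM in wild-type libraries. The homozygous and wild-type ranges were apart, but heterozygous replicate 2 lay within the homozygous range, so the homozygous and heterozygous groups overlapped for Cd74. The fitted change against wild type was -1.58 (SE 0.422; edgeR adjusted p = 0.391).

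Of the 3 H2-M genes, which edit the peptide, H2-DMa and H2-DMb1 did not overlap between homozygous and wild-type libraries, H2-DMb2 did, and none passed edgeR's test. H2-DMa, the alpha chain of H2-M, had 201.4, 232, 201.5 and 121 CPM in homozygous libraries, 414, 311.0 and 353 CPM in heterozygous libraries, and 507, 480.0 and 434 CPM in wild-type libraries. It was the only member whose 3 genotypes did not overlap at all, in the order homozygous below heterozygous below wild type. Its spread within a genotype was the smallest of the abundant members, with a coefficient of variation of 25.1% in homozygous, 14.4% in heterozygous and 7.85% in wild-type libraries. H2-DMa had the strongest edgeR result among the members: a log2 fold change of -1.33 against wild type (SE 0.197; adjusted p = 0.0567), the 12th lowest p of the 14023 genes. It did not pass the adjusted threshold of 0.05. In 5 of 19 alternative settings it did, namely without a count filter, with a stricter one, with DESeq2, with limma-voom and with the title letter as a covariate, and its adjusted p ranged from 6.79e-08 with DESeq2 to 0.270 with a replicate block.

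H2-DMb1, a beta chain of H2-M, had 221, 237, 198 and 113.5 CPM in homozygous libraries, 360, 190 and 378.6 CPM in heterozygous libraries, and 412.5, 443 and 332 CPM in wild-type libraries. Heterozygous replicate 2 again lay within the homozygous range, and the homozygous and wild-type groups did not overlap. The fitted change against wild type was -1.04 (SE 0.281; edgeR adjusted p = 0.395). H2-DMb2, the other beta-chain gene, was far lower, at 5.52, 8.64, 6.00 and 8.87 CPM in homozygous, 8.67, 7.21 and 16.0 CPM in heterozygous and 29.0, 20.03 and 7.32 CPM in wild-type libraries. Wild-type replicate 3 lay inside the homozygous range of H2-DMb2, whose fitted change was -1.37 (SE 0.565; edgeR adjusted p = 0.653).

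H2-Oa and H2-Ob, the chains of the H2-M inhibitor H2-O, which is best known from B cells, were among the least abundant members. H2-Oa had 0, 3.00, 0.966 and 1.60 CPM in homozygous libraries, 0, 0 and 7.77 CPM in heterozygous libraries, and 6.43, 8.01 and 6.76 CPM in wild-type libraries. All homozygous values lay under all wild-type values, and the heterozygous libraries overlapped both groups. Its fitted change against wild type had a wide error (-2.34, SE 2.18; edgeR adjusted p = 0.999). H2-Ob had 14.2, 5.86, 7.44 and 4.31 CPM in homozygous libraries, 2.29, 14.85 and 6.04 CPM in heterozygous libraries, and 14.1, 5.96 and 39.5 CPM in wild-type libraries. The 3 genotypes overlapped for H2-Ob, and its highest value was in wild-type replicate 3, the wild-type library that was lowest for the classical chains.

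Ciita, the co-activator, varied more between libraries than any other member without a zero, with 81.0-fold between its lowest and highest library. It had 17.7, 11.25, 25.0 and 1.18 CPM in homozygous libraries, 56.0, 5.42 and 48.3 CPM in heterozygous libraries, and 95.3, 41.0 and 18.4 CPM in wild-type libraries. These values rest on 39 counts in homozygous replicate 4 and 176 in heterozygous replicate 2, and on 413 to 2800 counts in the other 8 libraries. The genotypes overlapped: homozygous replicate 3 exceeded wild-type replicate 3, and heterozygous replicate 2 was below 3 of the 4 homozygous libraries. The fitted change against wild type was -1.90 with an SE of 0.954 (edgeR adjusted p = 0.705).

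Over the set, the homozygous libraries stood below wild type in fitted value for every one of the 10 genes, with a median log2 fold change of -1.74 against a median of 0.0159 over all genes tested, of which 48.9% were below 0. No member was called by edgeR at an adjusted p under 0.05, a threshold that 9 genes of the whole table passed (0.0642%; 6 of them lower, 0.0428%). DESeq2 called 6 members and 290 genes in all (2.12% of the 13686 it gave an adjusted p), and limma-voom 1 member and 10 genes (0.0713%). At an unadjusted p under 0.05, 7 members were lower in homozygous libraries, where 2.96% of all genes were. For 7 members every homozygous library was below every wild-type library (H2-Aa, H2-Ab1, H2-Eb1, Cd74, H2-DMa, H2-DMb1 and H2-Oa), where 3.57% of all genes were. Most members varied together between libraries, so these counts are not independent of each other.

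Markers of other cells were read in the same comparison. The 10 microglial markers summed to 8947 to 11378 CPM in homozygous, 11935 to 14726 CPM in heterozygous and 10302 to 18318 CPM in wild-type libraries. Their median log2 fold change, homozygous against wild type, was -1.16, with 9 of 10 below 0, 6 lower at an unadjusted p under 0.05 and 0 called by edgeR. Fcrls and Cx3cr1, both abundant, had 0.19 and -0.17. Of 9 tested B-cell markers, 7 were below 0 and 0 were called, with Ighm at -0.93 (SE 0.205; edgeR adjusted p = 0.276), and of 7 tested dendritic-cell markers 3 were below 0 and 0 were called. All 4 tested monocyte markers were below 0, of which Ccr2 was called lower (-4.18, SE 0.357; edgeR adjusted p = 0.00216). Of the 12 border-macrophage markers, 1 was called higher, Lyve1, typical of a subset with little class II (0.85, SE 0.0980; edgeR adjusted p = 0.0215). The 2 called lower were Mrc1 itself (-2.83) and Clec12a, which encodes a C-type lectin receptor (-1.22, SE 0.173; edgeR adjusted p = 0.0490). The part of these cell populations in the class II values was not tested.

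**Figure D2:**
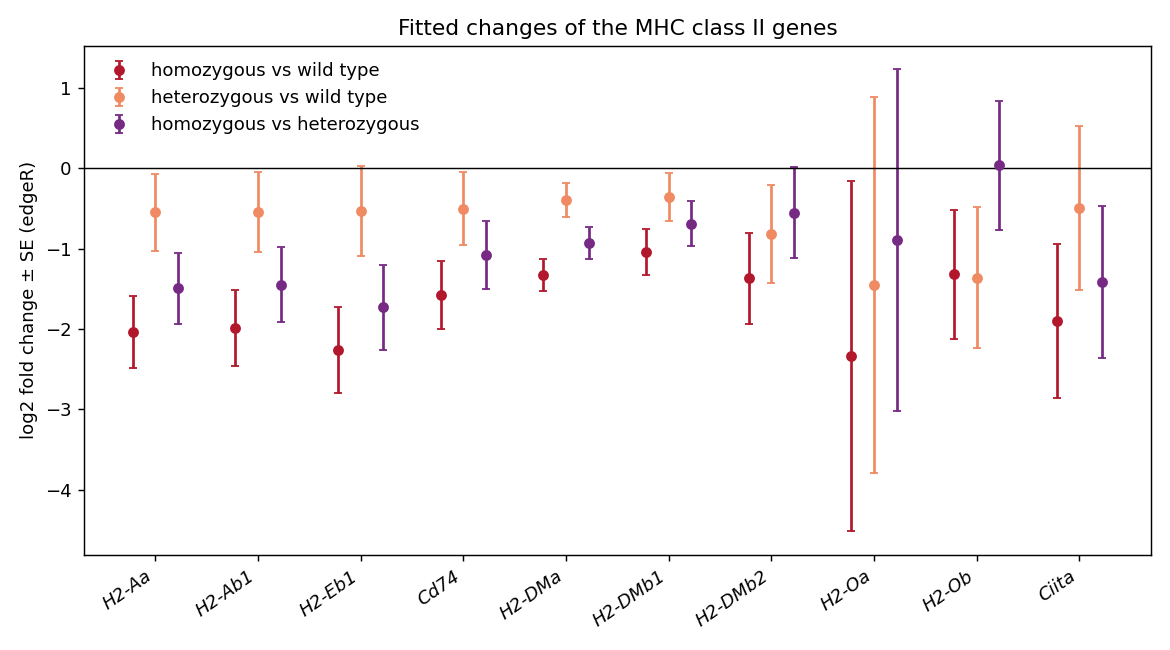
Fitted log2 fold changes (edgeR) of the 10 class II genes for homozygous against wild type, heterozygous against wild type and homozygous against heterozygous libraries; points are estimates and bars ± 1 SE, and the line marks 0. All 10 estimates are below 0 in homozygous against wild type, where H2-DMa has the smallest SE (0.197) and H2-Oa the largest (2.18).

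No class II gene was called in heterozygous macrophages against wild type. The mean CPM lay between the homozygous and wild-type means for every member except H2-Ob, and the heterozygous and wild-type libraries overlapped for 9 of the 10 genes. The exception was H2-DMa, with all heterozygous libraries below all wild-type libraries and a fitted log2 fold change of -0.40 (SE 0.212; edgeR adjusted p = 0.801). H2-Aa, H2-Ab1, H2-Eb1 and Cd74 had fitted values of -0.55, -0.54, -0.53 and -0.50, each close to its own SE. H2-DMb1 had -0.36, H2-DMb2 -0.82, H2-Oa -1.45, H2-Ob -1.36 and Ciita -0.50. All 10 were below 0, with a median of -0.53 against 0.00900 over all genes, of which 49.1% were below 0. edgeR called 0 members and 0 of 14023 genes at an adjusted p under 0.05 (0%), and no member was at an unadjusted p under 0.05, where 2.40% of all genes were lower. DESeq2 called no member and 236 genes in all (1.72%), and limma-voom called no member and no gene (0%). A single member did not overlap between the groups, against 4.16% of all genes. Among 9 tested B-cell markers, 4 were lower and 1 higher at an unadjusted p under 0.05, and of 4 tested monocyte markers 2 were lower, Ccr2 among them (-1.38, SE 0.358; edgeR adjusted p = 0.708). Of the 12 border-macrophage markers, 4 were higher and 1 lower, and no marker of these lists was called by edgeR. Their part in these values was not tested. The range of the wild-type group matters here: for the classical chains, the overlap came from wild-type replicate 3, its lowest library. That library was picked by these values, so leaving it out is no test of a difference. Both this comparison and the homozygous one use the same wild-type libraries.

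Set against the heterozygous libraries, which carry 1 copy of the allele, homozygous libraries were lower in fitted value for 9 of the 10 genes, H2-Ob being the exception at 0.04. The median was -1.0, against 0.00813 over all genes, of which 49.1% were below 0. No member passed the adjusted threshold with edgeR, which 3 genes of the table passed (0.0214%; 2 of them lower, 0.0143%), while DESeq2 called H2-DMa and 123 genes in all (0.917%), and limma-voom no member and 2 genes (0.0143%). At an unadjusted p under 0.05, 6 members were lower, where 2.20% of all genes were. H2-Aa, H2-Ab1, H2-Eb1 and H2-DMa did not overlap between the groups, as was the case for 3.72% of all genes. H2-DMa had a fitted change of -0.93 (SE 0.197; edgeR adjusted p = 0.537) and H2-Eb1, the largest of the abundant members, of -1.73 (SE 0.525; edgeR adjusted p = 0.985). The overlap for Cd74, H2-DMb1 and Ciita came from heterozygous replicate 2, the lowest heterozygous library for each of them. In the same comparison 9 of the 10 microglial markers were below 0, with a median of -0.91, 7 lower at an unadjusted p under 0.05 and 0 called by edgeR. The monocyte marker Ccr2 was called lower (-2.80, SE 0.340; edgeR adjusted p = 0.0421), as was Mrc1 (-2.14), and Lyve1 was called higher (0.79, SE 0.0978; edgeR adjusted p = 0.0421). The part of these cell populations in the class II values was not tested.

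The sample titles carry the letters m and f, which the labels do not explain, and within each letter the homozygous libraries had the lowest mean of H2-Aa and of H2-DMa. H2-Aa averaged 1570 CPM in the 2 homozygous, 3026 CPM in the 2 heterozygous and 5671 CPM in the 2 wild-type libraries with the letter m. With the letter f it averaged 773 CPM in 2 homozygous libraries, and stood at 3833 CPM in 1 heterozygous and 3101 CPM in 1 wild-type library. H2-DMa gave 217 CPM in homozygous, 363 CPM in heterozygous and 494 CPM in wild-type libraries with m, and 161 CPM in homozygous, 353 CPM in heterozygous and 434 CPM in wild-type libraries with f. The homozygous mean with f was below that with m for each of these genes, and no test was run within a letter.

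The members fell into a block that moved together from library to library and 3 genes whose correlations with it did not pass. Correlations were computed on log2 CPM (prior count 2) over the 10 libraries for all 45 pairs, and again on deviations from the genotype means, which removes what the genotypes differ by. Among H2-Aa, H2-Ab1, H2-Eb1 and Cd74, Pearson's r was 0.984 to 0.999 over libraries and 0.977 to 0.998 within genotypes, and all 6 pairs passed after adjustment over the 45 pairs (adjusted permutation p at most 0.000135 over libraries, and 0.0149 to 0.0174 by exact permutation within genotypes). Without the 2 libraries farthest from the median, r among the 4 was 0.953 to 0.999. The relation is closest for H2-Aa with H2-Eb1 (r = 0.999, Spearman's rho 1).

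H2-DMa and H2-DMb1 joined the block, with r of 0.940 to 0.987 with its 4 genes over libraries and 0.916 to 0.969 within genotypes, and all 8 pairs passed both ways (exact adjusted p within genotypes at most 0.0298). The slope of the log2 levels differed: for each doubling of H2-Aa, the log2 level of H2-Ab1 changed by 1.01 and that of H2-Eb1 by 1.17, against 0.81 for Cd74, 0.54 for H2-DMa and 0.50 for H2-DMb1. H2-M thus tracked the classical chains in order but over a compressed range. Ciita had the steepest slope, 1.33 over libraries and 2.10 within genotypes.

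H2-Ob, H2-Oa and H2-DMb2 had no correlation with the block that passed. H2-DMb2 came closest over libraries, with r of 0.604 to 0.631 with H2-Aa, H2-Ab1, H2-Eb1 and Cd74 (adjusted permutation p 0.0918 to 0.105). Without the 2 libraries farthest from the median these r were 0.763 to 0.784, and within genotypes 0.243 to 0.286. H2-Ob had r between -0.112 and 0.229 with the 9 others over libraries and between -0.579 and -0.111 within genotypes, and none of its pairs passed. H2-Oa and H2-DMb2 passed within genotypes only with each other (r = 0.537, exact adjusted p = 0.0417), not over libraries (r = 0.624, permutation adjusted p = 0.0918). In all, 21 of 45 pairs passed over libraries and 21 within genotypes.

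**Figure D3:**
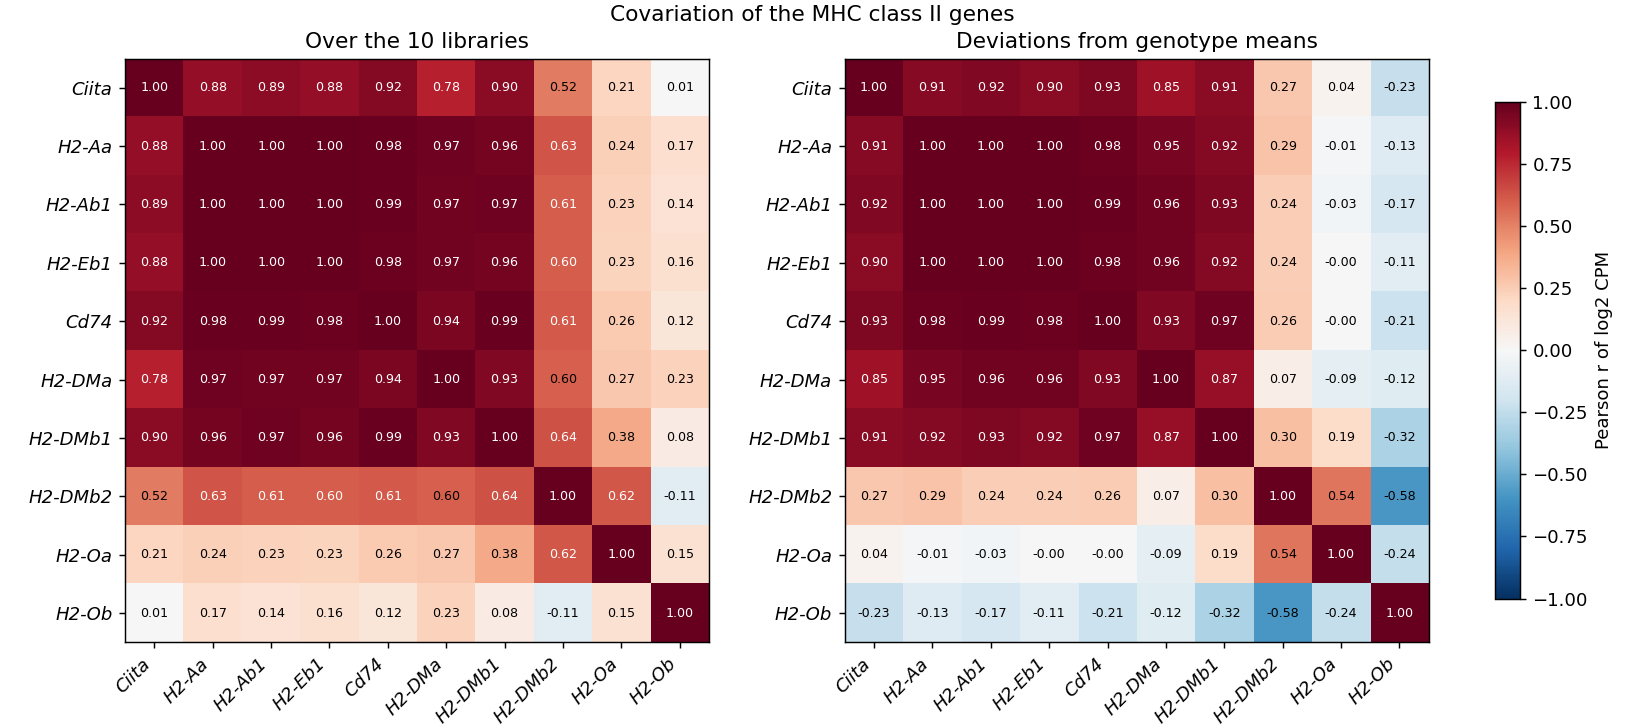
Pearson's r of log2 CPM for each pair of class II genes, over the 10 libraries (left) and on deviations from the genotype means (right), with the colour running from -1 (blue) to 1 (red). H2-Aa, H2-Ab1, H2-Eb1, Cd74, H2-DMa, H2-DMb1 and Ciita form a block in both panels, and H2-DMb2, H2-Oa and H2-Ob lie outside it within genotypes.

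Ciita followed the classical chains, with r of 0.875 with H2-Aa, 0.893 with H2-Ab1, 0.877 with H2-Eb1 and 0.918 with Cd74 over the 10 libraries. For H2-Aa this was a permutation p of 0.00160 (adjusted 0.00379 over 45 pairs), with Spearman's rho 0.794 (permutation p = 0.00793, adjusted 0.0178). Within genotypes r with H2-Aa was 0.911 (exact p = 0.0127, adjusted 0.0358), but rho was 0.661 (exact p = 0.0787, adjusted 0.186), so the rank order within genotypes did not pass. Among homozygous libraries, replicate 3 had the most Ciita, 25.0 CPM, and less H2-Aa (1164 CPM) than replicates 1 and 2, which had 17.7 and 11.25 CPM of Ciita.

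The relation was weaker without the extreme libraries. Without homozygous replicate 4 and wild-type replicate 1, the 2 farthest from the median of Ciita, r was 0.587 with H2-Aa (permutation p = 0.127), 0.642 with H2-Ab1 (permutation p = 0.0875) and 0.585 with H2-Eb1 (permutation p = 0.128). With Cd74 it was 0.742 (permutation p = 0.0380) and with H2-DMb1 0.767 (permutation p = 0.0292). For the classical chains r thus stayed positive, but did not reach a p under 0.05. Leaving out the extremes of Ciita narrows its range and tends to lower r, so the fall does not show what the relation rests on. With H2-DMa, r was 0.780 over libraries and 0.850 within genotypes (adjusted permutation p = 0.0151, exact adjusted p = 0.0471), and 0.420 without the 2 libraries. With H2-DMb1, r was 0.903 and 0.906 (adjusted permutation p = 0.00138, exact adjusted p = 0.0663 within genotypes). Ciita had r of 0.518 with H2-DMb2, 0.214 with H2-Oa and 0.00561 with H2-Ob, none of which passed. H2-Oa and H2-Ob are scarce, so their r says little. Their promoters hold the letter pair, as do those of H2-Aa and H2-Eb1, and a relation of the pair to r was not tested.

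**Figure D4:**
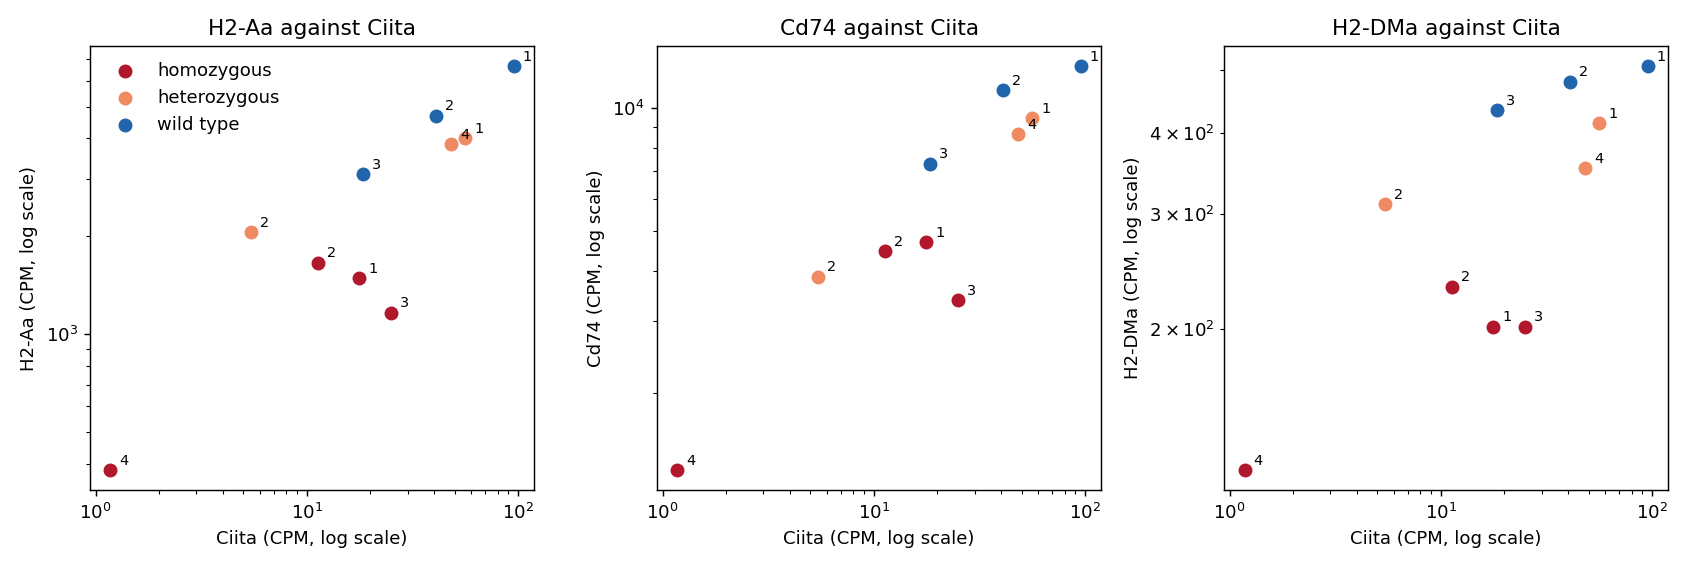
H2-Aa, Cd74 and H2-DMa (CPM, log scale) against Ciita (CPM, log scale) in the 10 libraries, coloured by genotype and marked with the replicate number. Homozygous replicate 4 is lowest on both axes in each panel (1.18 CPM of Ciita) and wild-type replicate 1 highest (95.3 CPM), and at a similar Ciita level the wild-type library 3 lies above homozygous libraries 1 and 3.

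Genes outside the set with the most similar pattern were sought among 8124 tested genes with a mean of at least 10 CPM, by r of deviations within genotypes over the 10 libraries. The 5 nearest to Ciita were Zfp275 (r = 0.975), Il10ra (0.943), the IL-10 receptor chain, Cass4 (0.935), Sde2 (0.927) and Nr1h2 (0.901), the oxysterol receptor LXR-beta. Set among those genes, Cd74 would rank 4th, H2-Aa, H2-Ab1 and H2-DMb1 5th, H2-Eb1 6th and H2-DMa 27th, whereas H2-DMb2, H2-Oa and H2-Ob would rank 1771st, 3411th and 5681st. Nearest to the mean of H2-Aa, H2-Ab1, H2-Eb1 and Cd74 were Gas8 (0.966), Zfp275 (0.936), Fyco1 (0.934), Klhl5 (0.924) and Pxk (0.908). Over libraries, genotype differences included, r with this mean was 0.540, 0.909, -0.288, 0.146 and 0.749 in that order. With Ciita it was 0.875 for Zfp275, 0.884 for Il10ra, 0.932 for Cass4, 0.824 for Sde2 and 0.544 for Nr1h2. With 10 libraries, a ranking over so many genes yields high values by selection, and none of these r is tested. Neither Il10ra (-0.38, adjusted p = 0.606) nor Zfp275 (-1.76, adjusted p = 0.638) passed edgeR's test for homozygous against wild type.

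Ratios within a library, per kilobase, show which members kept their proportion as the block varied. The chains of I-A did: the ratio of H2-Ab1 to H2-Aa was 1.18, 1.18, 1.22 and 1.08 in homozygous, 1.24, 1.06 and 1.11 in heterozygous and 1.10, 1.20 and 1.15 in wild-type libraries, a range of 0.23 on the log2 scale while each gene alone varied over 17-fold. The ratio of Cd74 to H2-Aa was 2.53, 2.15, 2.33 and 2.71 in homozygous, 1.89, 1.5 and 1.80 in heterozygous and 1.53, 1.89 and 1.89 in wild-type libraries. All homozygous libraries thus lay above the rest, by 0.46 on the log2 scale against wild type and 0.49 against heterozygous (two-sided exact permutation p = 0.0286 each, the smallest possible; adjusted 0.120 over 21 ratio tests).

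H2-DMb1 relative to H2-Aa behaved the same way. The ratio was 0.119, 0.115, 0.136 and 0.238 in homozygous, 0.0723, 0.0743 and 0.0794 in heterozygous and 0.0498, 0.0760 and 0.0860 in wild-type libraries, with no overlap of the homozygous libraries with the others. The log2 difference was 1.08 against wild type and 0.95 against heterozygous (exact permutation p = 0.0286 each, adjusted 0.120). For H2-DMa the ratio to H2-Aa overlapped, with a log2 difference of 0.80 against wild type (exact p = 0.143, adjusted 0.375). H2-Eb1 leaned the other way, at 0.397, 0.425, 0.379 and 0.288 of H2-Aa in homozygous, 0.475, 0.420 and 0.475 in heterozygous and 0.459, 0.464 and 0.442 in wild-type libraries. That was a log2 difference of -0.31 against wild type (exact p = 0.0571, adjusted 0.200). The ratio of Ciita to H2-Aa ranged over 3.03 on the log2 scale with no difference between genotypes beyond that spread (-0.08 for homozygous against wild type, exact p = 0.943). None of the 21 ratio tests passed the adjustment.

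**Figure D5:**
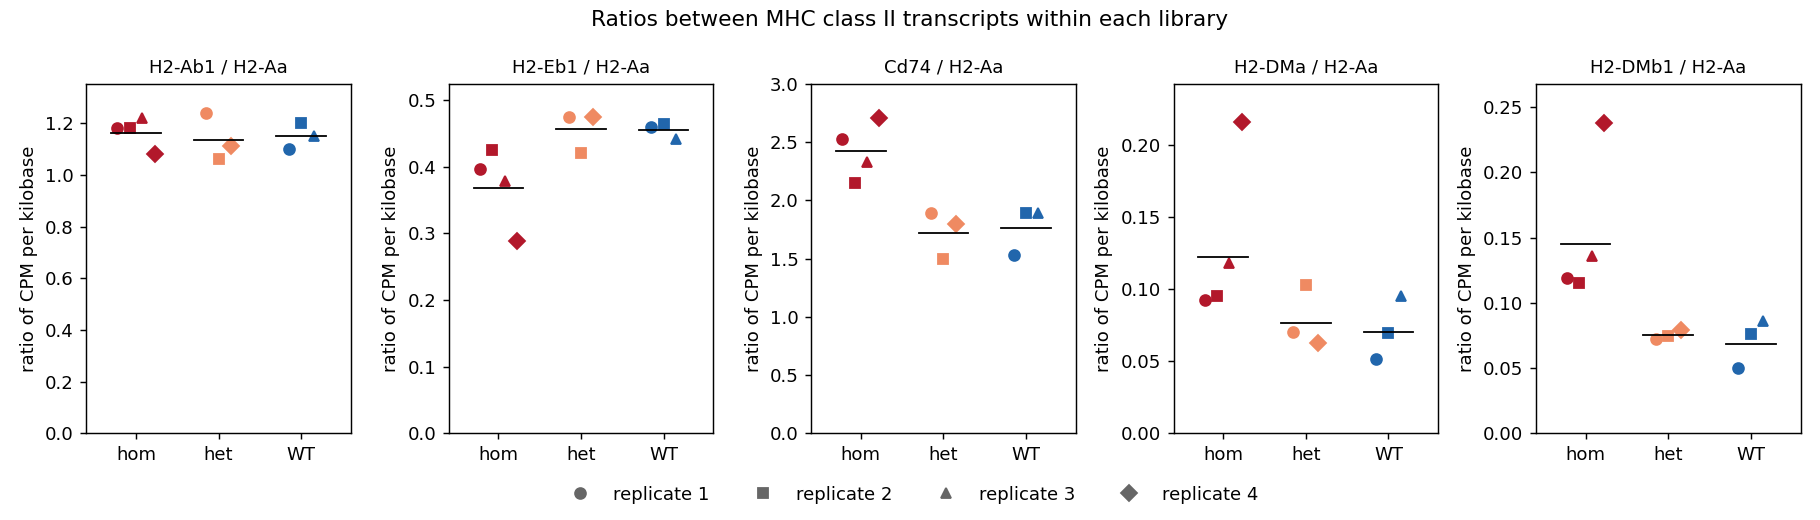
Ratio of CPM per kilobase to that of H2-Aa in the same library, for H2-Ab1, H2-Eb1, Cd74, H2-DMa and H2-DMb1, by genotype; points are libraries with a shape for each replicate number, and lines are geometric means. H2-Ab1 stays between 1.06 and 1.24 in all libraries, and Cd74 and H2-DMb1 are highest relative to H2-Aa in the homozygous libraries.

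None of the factors that CIITA docks on was called. In homozygous against wild type edgeR called 0.0642% of all genes, so 0 calls in a short list do not set it apart. Of 7 promoter regulators (Rfx5, Rfxank, Rfxap, Nfya, Nfyb, Nfyc and Creb1), 0 were called by edgeR and 0 were at an unadjusted p under 0.05 in homozygous against wild type, with a median of 0.15. The most abundant were Creb1, at 70.4 ± 30.1 CPM in homozygous and 77.8 ± 13.9 CPM in wild-type libraries, Rfxap, at 35.1 ± 6.42 CPM in homozygous and 31.5 ± 3.55 CPM in wild-type libraries, and Nfyc, at 30.6 ± 7.82 CPM in homozygous and 32.5 ± 3.52 CPM in wild-type libraries (SD, n = 4 and 3). Interferon gamma is the classic inducer of Ciita. None of its 9 signalling genes was called by edgeR (median -0.04), and 1 was at an unadjusted p under 0.05, Irf8 (-0.40, SE 0.129; edgeR adjusted p = 0.558), while its receptor chains Ifngr1 and Ifngr2 had -0.04 and -0.12.

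Genes that act on class II after transcription, or lie beside it, were not called by edgeR either. Of all genes it called 0.0642% in homozygous against wild type, 0% in heterozygous against wild type and 0.0214% in homozygous against heterozygous. At these shares, 0 calls in a short list do not set it apart from other genes. The 6 endosomal proteases and reductase had a median of -0.05 in homozygous against wild type with 0 called. Ctss, which trims the invariant chain, had 4357 ± 480.5 CPM in homozygous and 5155 ± 966 CPM in wild-type libraries (-0.24, SE 0.122). Ctsb was higher at an unadjusted edgeR p of 0.00425 (0.30, SE 0.0823, adjusted p = 0.414) and was not called. Ctsd (-0.15) and the thiol reductase Ifi30 (-0.14) also did not pass. The 6 genes of surface turnover and costimulation had a median of -0.14 with 0 called and 1 higher at an unadjusted p under 0.05. They include Cd86 (-0.02), Cd83 (-0.18) and Marchf1 (-0.17), the ligase that removes class II from the surface. Neighbours within the class II region had a median of -0.14 over the 5 tested of 7, with Psmb8 at -0.14, Tap2 at -0.21 and Tap1 at 0.24, so genes interleaved with the class II genes on chromosome 17 were not called. Class I genes had a median of -0.09 over 7, with H2-K1 at -0.09 (SE 0.0753), B2m at -0.10 and H2-D1 at 0.02. In heterozygous against wild type the median was 0.58 for the promoter regulators, -0.07 for interferon gamma signalling, 0.01 for the proteases, -0.11 for surface turnover and costimulation, -0.07 for the neighbours and -0.10 for class I, with 0 genes called by edgeR. In homozygous against heterozygous it was 0.05 for the promoter regulators, 0.07 for interferon gamma signalling, -0.04 for the proteases, 0.08 for surface turnover and costimulation, 0.08 for the neighbours and 0.04 for class I, again with 0 called by edgeR.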

How the data were processed

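Per the labels' protocols, cDNA of sorted CAMs was amplified with a SMARTer kit (500 pg input RNA) and turned into Nextera XT libraries. This chemistry amplifies from little RNA and does not mark strand. The deposited values are raw counts of reads per gene. The submitters' processing notes name bcl2fastq 2.20, STAR 2.7.8a and featureCounts 2.0.2; neither the labels nor the file header states a genome build, an annotation or a strand setting. Replicates of a genotype are individual mice, per the series' design text, and no pair of libraries agreed within sampling noise. The members and all gene lists were chosen with earlier results of these data known.

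The counts were fitted with edgeR 4.0.16 in R 4.3.3 (TMM, filterByExpr with a minimum count of 10, robust quasi-likelihood F test, all 10 libraries, genotype alone, Benjamini-Hochberg adjustment over 14023 genes, which hold 99.89% of counts). CPM use TMM library sizes. Lengths and positions on GRCm38 are those of GENCODE vM21 and apply only if the authors' gene models are alike. Correlations used 100000 permutations over libraries, or all 864 orders within genotypes; ratios used exact permutation. DESeq2 1.42.0 and limma-voom (limma 3.58.1) were alternatives, with other filters, scalings and covariates and each library left out. Intervals are not given for single libraries, and the limit for a count of 0 covers counting error only. The scripts were tested on simulated data. Beside the 10 genes, the text names listed genes that were called, otherwise the most abundant 3 of a list, with Ifi30, Ctss and H2-K1 always named, and the 5 nearest in pattern; a few listed genes that this rule would name are not reported here.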

Additional observations from a re-analysis of the deposited data

How the results depend on the processing

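Each fitted result was recomputed under 19 alternatives. Of the members' fold changes, 180 of 190 kept direction and call for homozygous against wild type, and the other 10 gained a call. DESeq2 called 6 members there (H2-Aa, H2-Ab1, H2-Eb1, Cd74, H2-DMa and H2-DMb1), and limma-voom, no count filter, a stricter filter and the title letter as a covariate called 1 each, H2-DMa. DESeq2 called 1 in homozygous against heterozygous, also H2-DMa. The cause was not tested. Leaving out any library left 0 members called in the 3 comparisons. Counts over all genes depended on the fit. For homozygous against wild type, edgeR called 9 genes, DESeq2 290, the title letter as a covariate 17, the fit of only these genotypes 2, and the leave-one-out fits 2 to 12, with 5 or fewer without any library except wild-type replicate 3. For heterozygous against wild type DESeq2 called 236. For homozygous against heterozygous, edgeR called 3, DESeq2 123, the fit without robust estimation, with the title letter, or of only these genotypes 1 each, and the leave-one-out fits 1 to 2.

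Replicate numbers did not pair the libraries: deviations of same-numbered libraries correlated at -0.0118 to 0.0347. With the replicate block, edgeR called 1 gene for homozygous against wild type, 0 for heterozygous against wild type and 1 for homozygous against heterozygous, with 0 members. Fold changes that reversed were not called in any fit. With 1 library left out, Ciita in heterozygous against wild type ran from -0.957 to 0.295; it was 0.0164 without heterozygous replicate 2 and 0.295 without wild-type replicate 1. In homozygous against heterozygous, H2-Oa ran from -1.59 to 8.49 and H2-Ob from -0.393 to 0.931 with 1 library left out. H2-Oa was 2.29 with limma-voom, 0.437 with the title letter, 4.23 with the replicate block and 8.49 without heterozygous replicate 4, a fold against libraries at 0 that is no bound. H2-Ob there was -0.289 with the replicate block, -0.393 without homozygous replicate 1, -0.388 without heterozygous replicate 1 and -0.103 without heterozygous replicate 4. The correlation of Ciita with H2-Aa ran from 0.715 to 0.935 over libraries and from 0.814 to 0.960 within genotypes with 1 library left out; within genotypes it missed the threshold without homozygous replicate 4 (0.814) and as Spearman's rho (0.661). Depth limits H2-Oa, H2-Ob, H2-DMb2 and Ciita most.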
